A study of Mus musculus with 8 samples.

Results

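CC chemokines are small secreted proteins that attract leukocytes by binding G protein-coupled receptors named CCR. The CC in their name stands for a pair of adjacent cysteines near the start of the mature protein. CCL2, CCL7 and CCL12 act through CCR2, the receptor by which monocytes leave the marrow and enter inflamed tissue. CCL3, CCL4 and CCL5 are inflammatory chemokines that attract monocytes and T cells, CCL6 and CCL9 are ligands of CCR1 that rodent myeloid cells make, and CCL22 attracts T cells that carry CCR4. Several of their genes are known targets of NF-κB and of interferon-activated factors in macrophages.

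The 9 members described here (Ccl2, Ccl7, Ccl12, Ccl3, Ccl4, Ccl5, Ccl6, Ccl9 and Ccl22) were taken by gene symbol from the 54532 gene identifiers counted by RNA-Seq. The cells were bone marrow-derived macrophages (BMDMs), grown for 7 days in medium conditioned by L929 cells from the marrow of mice aged 6 to 8 weeks. The 4 groups were wild-type (WT) BMDMs with DMSO vehicle, Trex1-/- BMDMs with DMSO, Trex1-/- BMDMs with H151, and Trex1-/- BMDMs with SN-011. TREX1 is an exonuclease that degrades cytosolic DNA, and H151 and SN-011 are small-molecule antagonists of STING, the adaptor that signals when cytosolic DNA is sensed. Each incubation lasted 12 h, with 500 nM H151. No dose of SN-011 is stated in the labels, and the study's methods state the same nominal concentration for both antagonists. WT cells were given no antagonist, so the effect of H151 or SN-011 on cells with Trex1 was not measured.

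Each group held 2 libraries, with total counts between 11845470 and 17284863. The study calls them independent experiments, and the labels do not tie them to animals, so the p-values measure only the spread between these libraries. Trex1 itself had 0 counts in all 8 libraries, WT included, so the genotype could not be checked in the counts. All 8 macrophage markers examined were counted in every group, and their summed level lay between 30090 and 32360 CPM, counts scaled to equal library sizes, in each library. Of these markers, 3 were called higher in Trex1-/- than in WT and none lower, beside 9.27% and 7.11% of all tested genes. These were Fcgr1 at 2.20-fold, Cd68 at 1.35-fold and Adgre1 at 1.14-fold, by the edgeR test described below. Against Trex1-/- with DMSO, Fcgr1 alone was called lower with each antagonist, by 0.50 on the log2 scale with H151 and 0.49 with SN-011. In those comparisons 1.84% and 2.22% of all tested genes were called lower. The SN-011 libraries were recorded later than the other 6 and carry another treatment text, so a batch of these 2 libraries and the treatment cannot be told apart. Comparisons named below share libraries: the Trex1-/- group enters both antagonist comparisons, and the WT group enters 3.

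The members are separate genes at the sequence level, which bears on whether reads can be told apart. The stretches below are 48 coding bases of each member, 5′ to 3′ on the coding strand, from the mouse genome GRCm38 with GENCODE release 21, and the capitals mark the codons of the paired cysteines.
Ccl2 (chr11:82036488-82036535, plus strand, exon 2 of 3): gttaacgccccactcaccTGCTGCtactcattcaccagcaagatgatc
Ccl7 (chr11:82046520-82046567, plus strand, exon 2 of 3): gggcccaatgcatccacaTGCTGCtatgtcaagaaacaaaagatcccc
Ccl12 (chr11:82102616-82102663, plus strand, exon 2 of 3): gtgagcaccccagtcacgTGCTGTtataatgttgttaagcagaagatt
Ccl3 (chr11:83648628-83648675, minus strand, exon 2 of 3): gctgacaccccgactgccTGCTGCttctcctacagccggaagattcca
Ccl4 (chr11:83663464-83663511, plus strand, exon 2 of 3): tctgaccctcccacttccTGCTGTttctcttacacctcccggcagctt
Ccl5 (chr11:83529218-83529265, minus strand, exon 2 of 3): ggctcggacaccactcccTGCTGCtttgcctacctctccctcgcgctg
Ccl6 (chr11:83589362-83589409, minus strand, exon 3 of 4): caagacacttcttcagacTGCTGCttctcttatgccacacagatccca
Ccl9 (chr11:83575902-83575949, minus strand, exon 3 of 4): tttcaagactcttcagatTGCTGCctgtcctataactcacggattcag
Ccl22 (chr8:94746916-94746963, plus strand, exon 2 of 3): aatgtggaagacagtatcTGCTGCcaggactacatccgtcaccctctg
The first cysteine codon is TGC in all 9 members and the next is TGT in Ccl4 and Ccl12 and TGC in the other 7, and the flanking bases differ. No stretch of 50 transcribed bases was shared between any members. In Ccl9, 1.97% of such stretches also occurred in other genes, and in the other 8 members none did. No exon of a member overlapped an exon of another gene.

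The members fall into 3 places in the genome. Ccl2 (ENSMUSG00000035385), Ccl7 (ENSMUSG00000035373) and Ccl12 (ENSMUSG00000035352) lie within chr11:82035571-82103400. Ccl5 (ENSMUSG00000035042), Ccl9 (ENSMUSG00000019122), Ccl6 (ENSMUSG00000018927), Ccl3 (ENSMUSG00000000982) and Ccl4 (ENSMUSG00000018930) lie within chr11:83525778-83664683. Ccl22 (ENSMUSG00000031779) is on chromosome 8, at chr8:94745590-94751699.

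Ccl6 and Ccl9 were the most abundant CC chemokine mRNAs in BMDMs of every group. Levels were compared between genes as CPM per kilobase of exon. In WT, Ccl6 was at 197 ± 33 CPM per kilobase (SD, n = 2) and made up 41.5% of the summed level of the 9 members, and Ccl9, at 150 ± 4.4, made up 31.5%. Ccl3 followed at 81.7 ± 0.72 and Ccl4 at 17.9 ± 0.97 CPM per kilobase, and the libraries of each of these genes lay apart from those of the next. Ccl7, at 9.93 ± 0.64, Ccl2, at 9.26 ± 2.7, and Ccl5, at 6.59 ± 5.4 CPM per kilobase, overlapped in their libraries. Ccl12, at 2.73 ± 1.4 CPM per kilobase, overlapped with Ccl5, and Ccl22 was lowest, at 0.0633 ± 0.090.

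In Trex1-/- BMDMs the order of the leading 4 members stayed, and Ccl5 stood next at 21.3 ± 3.7 CPM per kilobase (SD, n = 2), apart from Ccl7 at 13.8 ± 1.7. Ccl2, at 10.0 ± 0.95 CPM per kilobase, and Ccl12, at 9.35 ± 0.89, overlapped in that group. With H151, Ccl5 again followed Ccl4, at 11.7 ± 1.0 CPM per kilobase, and Ccl7, at 8.32 ± 0.61, overlapped with Ccl2, at 8.03 ± 0.33. With SN-011, Ccl2 was at 10.2 ± 0.36, Ccl7 at 9.11 ± 1.1 and Ccl5 at 8.90 ± 0.45 CPM per kilobase. The place of Ccl5 in that group depended on the length used, since per kilobase of its longest transcript it followed Ccl4, at 12.8.

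**Figure D1:**
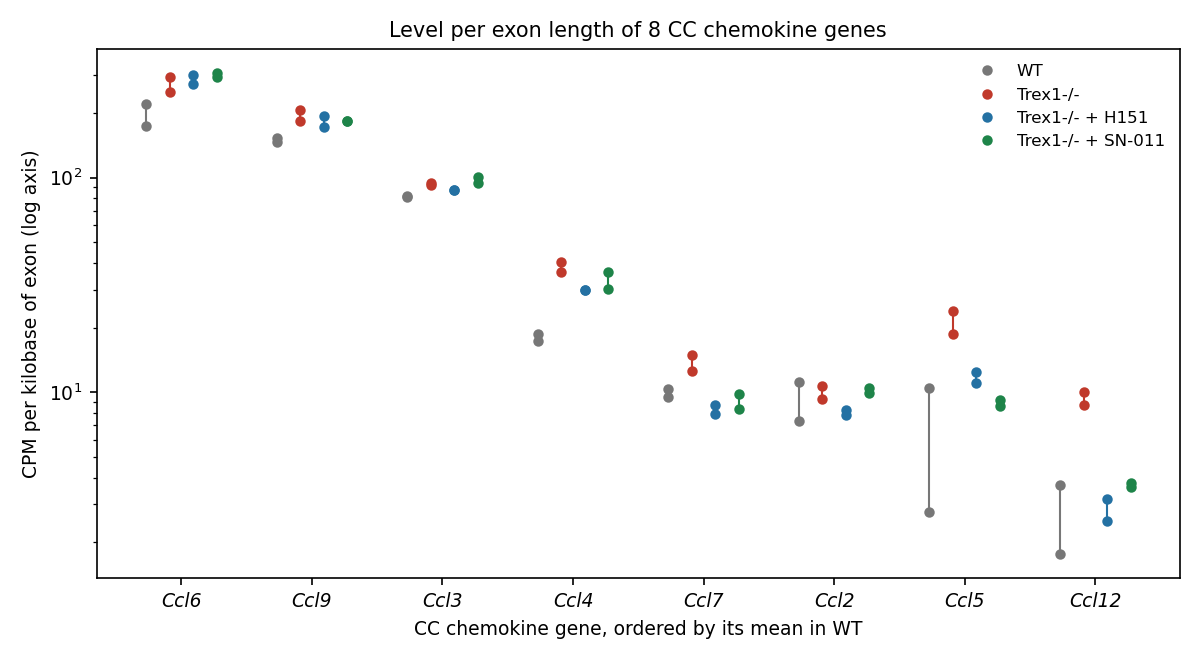
Level of 8 CC chemokine genes in CPM per kilobase of exon on a log axis, with 1 point per library, a line joining the 2 libraries of a group, and genes ordered by their WT mean. Ccl22 is left out because some of its libraries are at 0. Ccl6, Ccl9, Ccl3 and Ccl4 keep this order in each of the 4 groups, and Ccl5 and Ccl12 show the widest gap between WT libraries.

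The chemokine response to loss of Trex1 was measured by setting Trex1-/- against WT BMDMs. Of the 8 members that passed the count filter, 5 rose in Trex1-/- BMDMs at a false discovery rate (FDR) below 0.05, namely Ccl12, Ccl5, Ccl4, Ccl6 and Ccl9, and none fell. Over all 14591 genes tested by the edgeR quasi-likelihood test, 9.27% were called higher and 7.11% lower. Scaled by library totals alone, these shares were 6.48% and 10.95%, and the same 5 members were called higher. The median log2 fold change was 0.47 over the 8 members and -0.002 over all tested genes. Ccl22 did not pass the filter.

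Ccl12, a ligand of CCR2, rose in Trex1-/- BMDMs. It was measured at 1.99 and 0.949 CPM in the WT libraries and at 5.36 and 4.68 CPM in the Trex1-/- libraries, from 27, 14, 71 and 71 counts. Both Trex1-/- libraries lay above both WT libraries. The log2 fold change was 1.78 (edgeR adjusted p = 0.00143, SE 0.32), a 3.43-fold rise with a 95% interval of 2.13 to 5.54. It ran from 1.32 without WT replicate 2 to 2.38 without WT replicate 1, and the gene was called under all 11 alternatives.

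Ccl2, which encodes the main monocyte attractant of this group, was at 12.7 and 8.34 CPM in WT and at 12.2 and 10.6 CPM in Trex1-/- BMDMs. The groups overlapped, and the log2 fold change of 0.11 (edgeR adjusted p = 0.753, SE 0.18) took the opposite sign, -0.18, without WT replicate 2. Ccl7, its neighbour on chromosome 11, was at 8.32 and 7.59 CPM in WT and at 12.0 and 10.1 CPM in Trex1-/- BMDMs. Its libraries did not overlap, and its log2 fold change of 0.47 (edgeR adjusted p = 0.0743, SE 0.17) was not called.

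Among Ccl3, Ccl4 and Ccl5, the inflammatory chemokines, Ccl4 and Ccl5 rose and Ccl3 was not called. Ccl4, which encodes macrophage inflammatory protein-1β, was at 12.3 and 11.4 CPM in WT and at 23.8 and 26.6 CPM in Trex1-/- BMDMs, with no overlap. For Ccl4 the log2 fold change was 1.09 (edgeR adjusted p = 3.17e-05, SE 0.13), and it stayed between 1.01 and 1.15 with any 1 library of these groups left out. Ccl5, which encodes RANTES, an attractant of T cells and monocytes, was at 10.0 and 2.64 CPM in WT and at 23.0 and 17.9 CPM in Trex1-/- BMDMs. WT replicate 1 lay well above WT replicate 2, at 136 against 39 counts, and both lay below the Trex1-/- libraries. For Ccl5 the log2 fold change was 1.71 (edgeR adjusted p = 0.00343, SE 0.35). It was 2.93 without WT replicate 1 and 1.02 without WT replicate 2, called in both cases, and DESeq2 did not call it (adjusted p = 0.0600). Over all 11 alternatives the adjusted p of Ccl5 ran from 1.15e-21 to 0.0600. Ccl3, which encodes macrophage inflammatory protein-1α, was at 62.9 and 62.2 CPM in WT and at 70.9 and 72.0 CPM in Trex1-/- BMDMs, a change of 0.19 on the log2 scale (edgeR adjusted p = 0.0742, SE 0.07).

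The abundant CCR1 ligands rose by smaller factors. Ccl6 was at 312 and 396 CPM in WT and at 452 and 529 CPM in Trex1-/- BMDMs, with no overlap. Its rise was 1.39-fold (95% interval 1.19 to 1.61, edgeR adjusted p = 0.00461), and it was not called without WT replicate 1 (log2 fold change 0.29, adjusted p = 0.0799). Ccl9 was at 447 and 466 CPM in WT and at 561 and 626 CPM in Trex1-/- BMDMs. Its rise was 1.30-fold (95% interval 1.18 to 1.44, edgeR adjusted p = 0.00129), and it was called with any 1 library left out.

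Ccl22, the ligand of CCR4 that dendritic cells and alternatively activated macrophages make, was near the floor of detection. It had 4 and 0 counts in WT, 5 and 19 in Trex1-/-, 0 and 4 with H151, and 2 and 0 with SN-011. A count of 3 was worth between 0.174 and 0.253 CPM in these libraries when scaled by library totals alone, and no fold change is given for Ccl22. Its highest value, 19 counts, was that of Trex1-/- replicate 2. When genes with at least 1 count were kept, Ccl22 was called lower with SN-011 than in Trex1-/- BMDMs with DMSO (edgeR adjusted p = 0.0420). It was called in no other comparison.

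**Figure D2:**
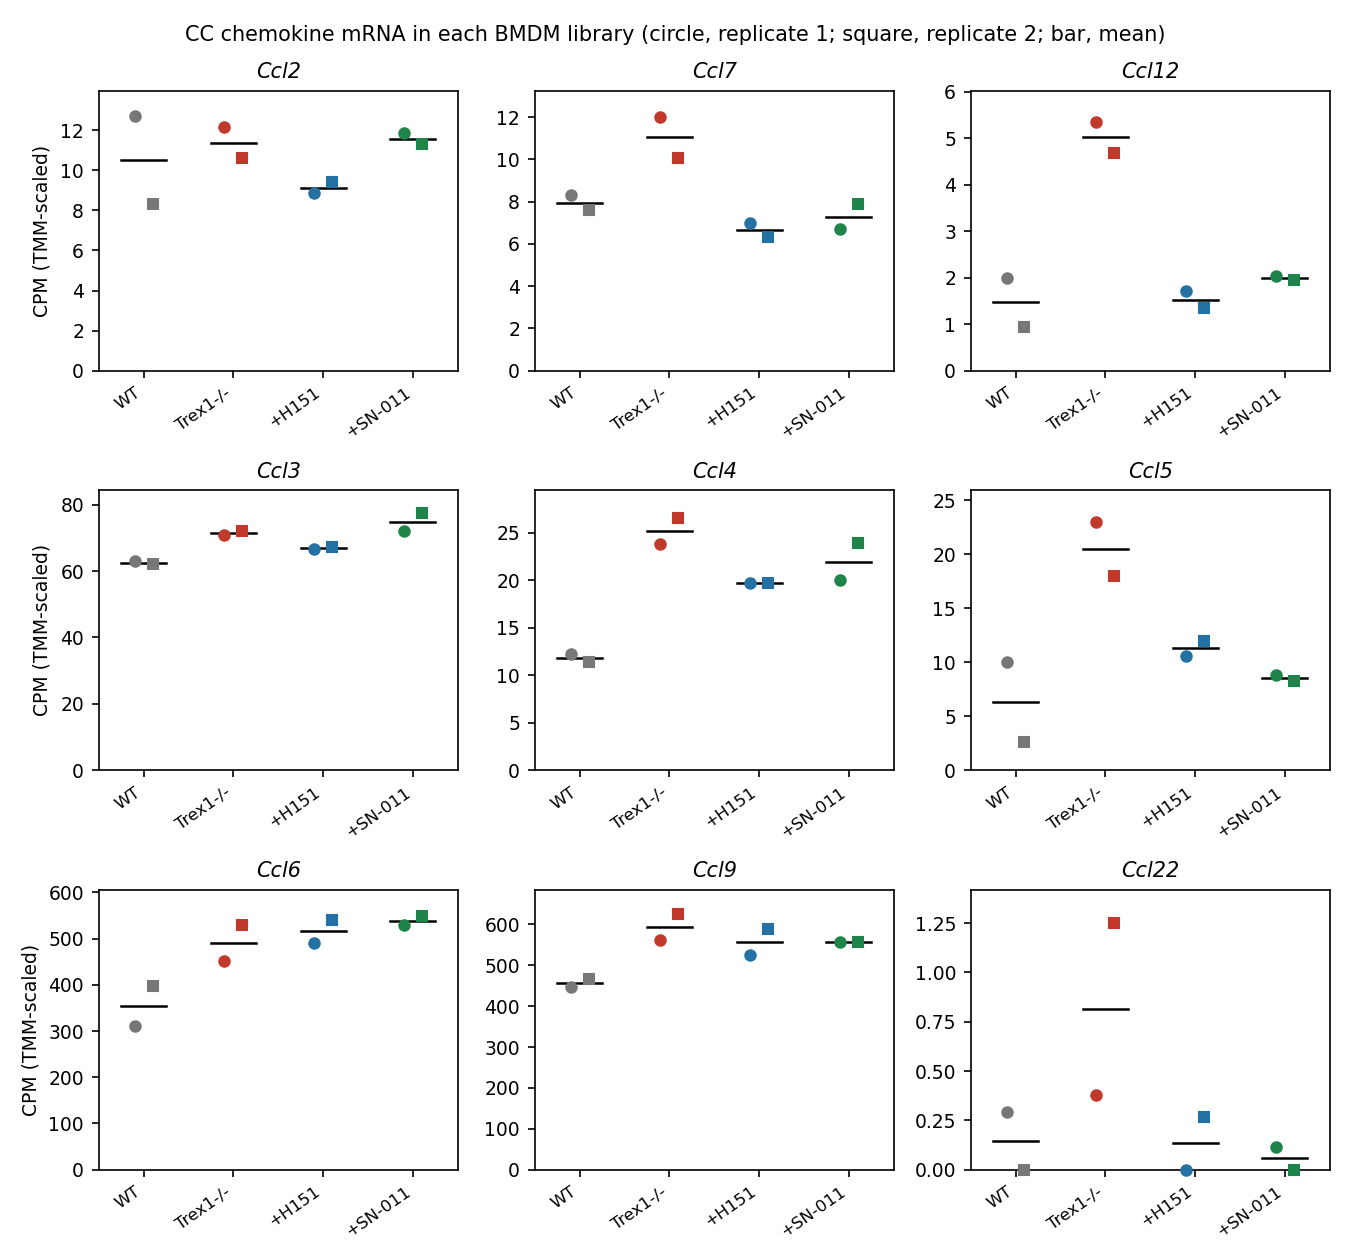
CPM of each CC chemokine gene in the 8 libraries, 1 panel per gene, with a circle for replicate 1, a square for replicate 2 and a bar at the group mean; the axes start at 0 and differ between panels. Ccl12 and Ccl5 stand highest in the 2 Trex1-/- libraries and lower with either antagonist, and Ccl6 and Ccl9 lie above WT in all 6 Trex1-/- libraries.

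Markers of other cell types also differed between genotypes. The summed level of 8 neutrophil markers was 8.68 to 9.64 CPM in WT libraries, 64.5 to 84.9 in Trex1-/-, 76.7 to 81.2 with H151 and 76.7 to 98.6 with SN-011. Of these markers, 5 were tested and all 5 were called higher in Trex1-/-, beside 9.27% of all tested genes. These were S100a8, S100a9, Camp, Ltf and Ngp, by 5.25- to 13.1-fold. Ly6g and Elane were at 0 in WT. The summed level of 8 stromal markers, among them Col1a1 and Col1a2, was 2250 to 2446 CPM in WT and 924 to 1147 in Trex1-/-. It was 1175 to 1289 CPM with H151 and 1000 to 1204 with SN-011. Of 7 stromal markers tested, 6 were called lower in Trex1-/-, beside 7.11% of all tested genes. The part of these cell types in the chemokine differences was not tested. In bulk RNA fewer cells of a type and less RNA per cell cannot be told apart.

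The summed level of 8 T and NK cell markers was 33.4 to 34.5 CPM in WT and 18.6 to 22.1 CPM in the other 6 libraries, and Cd4, the only tested gene of the list, carried most of it, with 33.6 CPM in WT against 20.98 in Trex1-/-. Cd4 was called lower in Trex1-/-. Of the rest of this list, Trac had 1 to 6 counts in every library, Nkg7 and Klrb1c had 0 counts in WT and 1 to 3 in the Trex1-/- libraries, and Cd3e and Cd8a had 0 in both groups. The part of T and NK cells in the level of Ccl5, which these cells also make, was not tested. Summed levels ran from 2.28 to 5.18 CPM for 5 B cell markers and from 1.40 to 3.40 CPM for 5 mast cell and basophil markers. The 7 dendritic cell markers summed to 1.69 to 2.72 CPM in WT and 2.93 to 3.70 CPM elsewhere, with Ccr7 and Cd209a at 0 in every library. Of 3 dendritic cell markers tested, 2 were called higher in Trex1-/- than in WT, beside 9.27% of all tested genes. These were Clec9a, by 6.07-fold (edgeR adjusted p = 0.00237), and Xcr1, by 7.34-fold (edgeR adjusted p = 0.00965). Both had 1 to 5 counts in WT and 15 to 26 in Trex1-/- libraries. The third, Zbtb46, was at 1.91 and 0.949 CPM in WT and at 0.604 and 0.528 CPM in Trex1-/-, and was not called (log2 fold change -1.32, edgeR adjusted p = 0.0951). With SN-011 it was at 1.28 and 2.04 CPM, above both Trex1-/- libraries and not called (edgeR adjusted p = 0.178). Clec9a and Xcr1 were not called with an antagonist against Trex1-/- with DMSO. Clec9a had 7 to 13 counts and Xcr1 9 to 25 in the libraries with an antagonist. Their part in the chemokine differences was likewise not tested.

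The antagonists were added to Trex1-/- BMDMs to ask which changes depend on STING. With H151, 2 of the 8 tested members, Ccl12 and Ccl7, were called lower than in Trex1-/- BMDMs with DMSO, and none higher. Over all tested genes 1.84% were called lower in that comparison. With SN-011, Ccl12 alone was called lower, and 2.22% of all tested genes were. The median log2 fold change over the 8 members was -0.33 with H151 and -0.15 with SN-011, against 0.001 and 0.009 over all tested genes.

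Ccl12 fell to levels that overlapped with WT. It was at 1.71 and 1.34 CPM with H151 and at 2.04 and 1.95 CPM with SN-011, below both Trex1-/- libraries in each case. The log2 fold change against Trex1-/- was -1.72 ± 0.32 with H151 (SE, edgeR adjusted p = 0.00915) and -1.32 ± 0.30 with SN-011 (SE, edgeR adjusted p = 0.0364). With counts of 20 to 35 in the treated libraries, these calls rested on few counts. The H151 call was lost without Trex1-/- replicate 1 (log2 fold change -1.62, adjusted p = 0.0589) or H151 replicate 2 (-1.55, adjusted p = 0.0642). The SN-011 call was lost without any 1 of the 4 libraries compared (log2 fold changes -1.42 to -1.22, adjusted p from 0.0766 to 0.314) and in DESeq2 (adjusted p = 0.0864). Against WT, Ccl12 differed by 0.06 on the log2 scale with H151 (95% interval -0.76 to 0.88) and by 0.46 with SN-011 (-0.32 to 1.23), and neither was called.

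Ccl7 was at 7.01 and 6.31 CPM with H151 and at 6.69 and 7.90 CPM with SN-011, below both Trex1-/- libraries. The log2 fold change was -0.73 ± 0.17 with H151 (SE, edgeR adjusted p = 0.0430) and -0.61 ± 0.17 with SN-011 (SE, edgeR adjusted p = 0.0976). The H151 call was lost without any 1 of the 4 libraries compared (adjusted p from 0.0568 to 0.281), in DESeq2 (0.0945), when scaled by library totals (0.0558) and when only these 2 groups were fitted (0.102). With SN-011, Ccl7 was called when genes with at least 1 count were kept (adjusted p = 0.0436) and in edgeR's exact test (0.0373). Ccl2 was at 8.88 and 9.40 CPM with H151 and at 11.9 and 11.3 CPM with SN-011, and was called in neither comparison (edgeR adjusted p = 0.724 and 0.969).

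Ccl5 lay below both Trex1-/- libraries with either antagonist and was not called. It was at 10.6 and 12.0 CPM with H151, a change of -0.85 on the log2 scale (edgeR adjusted p = 0.349, SE 0.32), and at 8.84 and 8.24 CPM with SN-011, a change of -1.25 on the log2 scale (edgeR adjusted p = 0.0793, SE 0.33). Both results changed with the fit. Ccl5 was called lower with H151 and with SN-011 when the 2 groups were fitted alone (adjusted p = 0.0341 and 0.000280), when genes with at least 1 count were kept and in edgeR's exact test, and with SN-011 also with the replicate number as a block (0.0196). Over all alternatives the adjusted p ran from 6.41e-06 to 1.00 with H151 and from 2.00e-12 to 0.647 with SN-011.

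Ccl4 was at 19.7 CPM in both H151 libraries, below both Trex1-/- libraries, with a change of -0.35 on the log2 scale (edgeR adjusted p = 0.236, SE 0.12). With SN-011 it was at 20.01 and 23.9 CPM, which overlapped with Trex1-/- (edgeR adjusted p = 0.520). Ccl3 was at 66.8 and 67.4 CPM with H151 and at 72.0 and 77.5 CPM with SN-011, within 0.24 of Trex1-/- on the log2 scale by the 95% intervals of both differences. Ccl6 was at 491 and 540 CPM with H151 and at 529 and 549 CPM with SN-011, with log2 fold changes of 0.07 (95% interval -0.14 to 0.29) and 0.14 (-0.08 to 0.35). Ccl9 was at 524 and 588 CPM with H151 and at 558 and 557 CPM with SN-011, with log2 fold changes of -0.09 (95% interval -0.24 to 0.05) and -0.09 (-0.23 to 0.05).

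**Figure D3:**
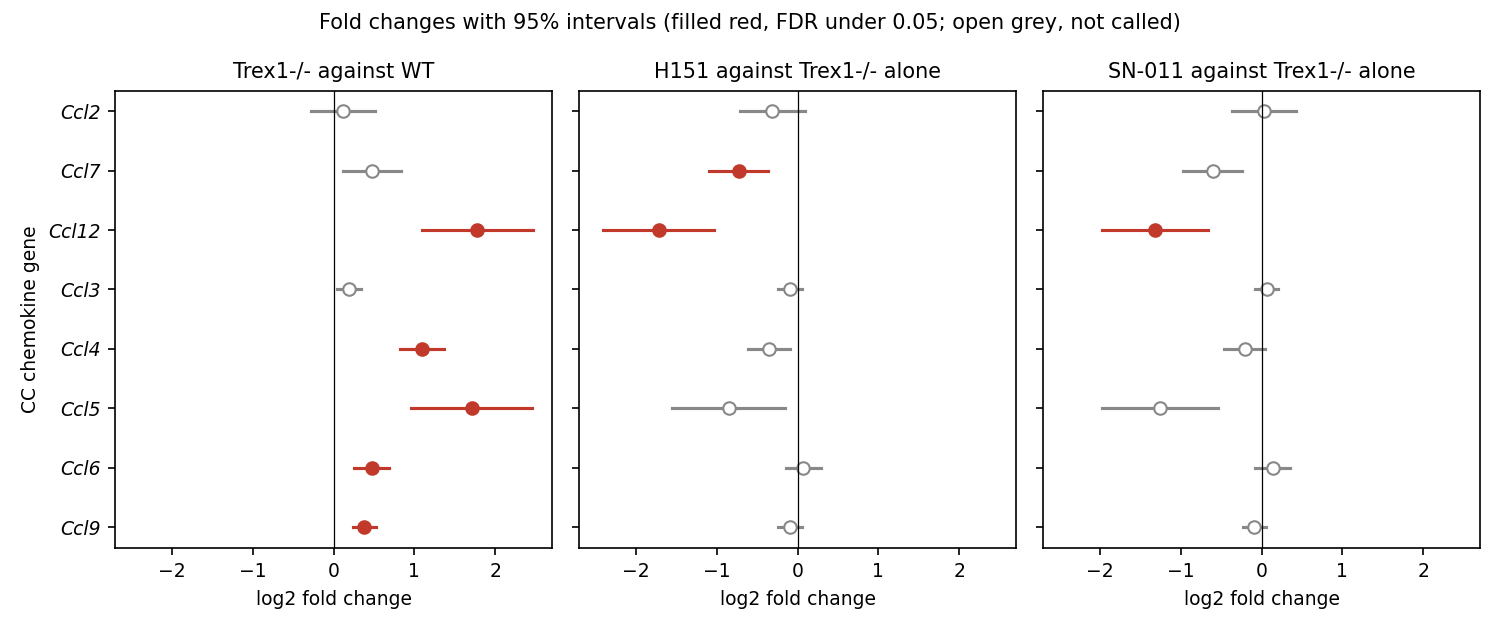
Log2 fold changes (points) with 95% intervals (bars) of the 8 tested CC chemokine genes from the edgeR fit. Panels show Trex1-/- against WT and each antagonist against Trex1-/- with DMSO. Filled red points passed an FDR of 0.05. Of the 5 genes called higher in Trex1-/-, Ccl12 was also called lower with both antagonists, and the intervals of Ccl6 and Ccl9 cross 0 in both antagonist panels.

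Ccl4, Ccl6 and Ccl9 stayed above WT under both antagonists. Against WT, 3 members were called higher with H151, beside 6.79% of all tested genes, and 4 with SN-011, beside 6.18%. Scaled by library totals alone, those shares of all genes were 4.90% and 4.82%. Ccl4 had a log2 fold change against WT of 0.74 ± 0.13 with H151 (SE, edgeR adjusted p = 0.00164) and 0.88 ± 0.13 with SN-011 (SE, edgeR adjusted p = 0.000363). Ccl6 stood at 0.54 ± 0.10 with H151 (SE, edgeR adjusted p = 0.00242) and 0.61 ± 0.10 with SN-011 (SE, edgeR adjusted p = 0.00106). Ccl4 and Ccl6 were called in both comparisons with any 1 library left out.

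Ccl9 stood at 0.29 ± 0.07 against WT with either antagonist (SE, edgeR adjusted p = 0.0128 with H151 and 0.0113 with SN-011). Its call with H151 was lost without WT replicate 1 (adjusted p = 0.142), WT replicate 2 (0.0535) or H151 replicate 2 (0.0890). Its call with SN-011 was lost without WT replicate 1 (0.134), SN-011 replicate 1 (0.0908) or SN-011 replicate 2 (0.106). Ccl3 was the fourth member called with SN-011, at 0.25 (edgeR adjusted p = 0.0251, SE 0.07), and this call was lost without any 1 of the 4 libraries compared (adjusted p from 0.0541 to 0.264), in DESeq2 (0.111), when scaled by library totals (0.0846) and when genes with at least 1 count were kept (0.0637). Ccl5 was called in neither comparison (edgeR adjusted p = 0.168 with H151 and 0.541 with SN-011). Without WT replicate 1 it was called higher in both, with log2 fold changes of 2.08 and 1.68.

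The 2 antagonists were compared directly with each other at 12 h. None of the 8 tested members differed at an FDR below 0.05 in edgeR or in DESeq2, 1 had an unadjusted p under 0.05 (Ccl3), and 0.158% of all tested genes were called. As log2 SN-011 over H151, the 95% intervals were -0.06 to 0.75 for Ccl2, -0.26 to 0.51 for Ccl7 and -0.38 to 1.17 for Ccl12. They were 0.01 to 0.30 for Ccl3, -0.11 to 0.41 for Ccl4 and -1.16 to 0.36 for Ccl5. The intervals of Ccl6 (-0.15 to 0.28) and Ccl9 (-0.14 to 0.15) were narrow, and those of Ccl12 and Ccl5 left room for differences above 2-fold. The call of Ccl7 with H151 and not with SN-011 is thus not a shown difference between the compounds.

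The receptors of these chemokines were examined as a list of 10 CCR genes, of which 5 passed the filter. In Trex1-/- BMDMs, 2 were called higher than in WT (Ccr2 and Ccr1) and 1 lower (Ccr3), beside 9.27% and 7.11% of all tested genes. None was called in either antagonist comparison, where 1.84% of all tested genes were called lower with H151 and 2.22% with SN-011. Ccr2, the receptor of CCL2, CCL7 and CCL12, was at 20.3 and 17.3 CPM in WT, 78.4 and 76.3 in Trex1-/-, 64.5 and 67.6 with H151, and 67.4 and 78.1 with SN-011. Its log2 fold change against WT was 2.04 (edgeR adjusted p = 8.19e-09, SE 0.10), with no overlap between WT and the rest. The part of other cell types in the receptor differences was not tested, and no list of monocyte markers was examined.

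Ccr1, the receptor of CCL6 and CCL9 and also of CCL3 and CCL5, was at 4.49 and 3.66 CPM in WT, 6.41 and 6.86 in Trex1-/-, 11 and 10.1 with H151, and 6.28 and 8.15 with SN-011. Its log2 fold change of 0.71 ± 0.20 in Trex1-/- (SE, edgeR adjusted p = 0.0293) was lost without any 1 of the 4 libraries compared (adjusted p from 0.0555 to 0.217), in DESeq2 (0.0815) and when scaled by library totals (0.0514). The H151 libraries were the highest for Ccr1, and their difference from Trex1-/-, 0.67 (edgeR adjusted p = 0.102, SE 0.18), was not called. Ccr3, the eotaxin receptor, fell by 1.19 on the log2 scale (edgeR adjusted p = 0.00907), and this call was lost without WT replicate 2 (adjusted p = 0.122) or Trex1-/- replicate 1 (0.0659). Ccr4, the receptor of CCL22, had at most 3 counts in a library.

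Ccrl2, an atypical receptor that binds the attractant chemerin, was the only tested member of 5 atypical receptors. It was at 15.2 and 18.1 CPM in WT, 66.4 and 55.1 in Trex1-/-, 38.4 and 37.2 with H151, and 38.7 and 39.2 with SN-011. Its libraries with either antagonist lay between WT and Trex1-/-. Ccrl2 had a log2 fold change of 1.86 ± 0.11 in Trex1-/- against WT (SE, edgeR adjusted p = 6.98e-08), -0.68 ± 0.10 with H151 (SE, adjusted p = 0.00189) and -0.64 ± 0.10 with SN-011 (SE, adjusted p = 0.00300), the last of which was lost without SN-011 replicate 1 (adjusted p = 0.0722). Trex1 lies on chromosome 9, and so do Ccrl2, 1.995 Mb further along, and Ccr1, Ccr3 and Ccr2, 14.9 to 15.04 Mb further along. An effect of the genomic region around the targeted locus and an effect of losing Trex1 cannot be told apart for these genes.

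**Figure D4:**
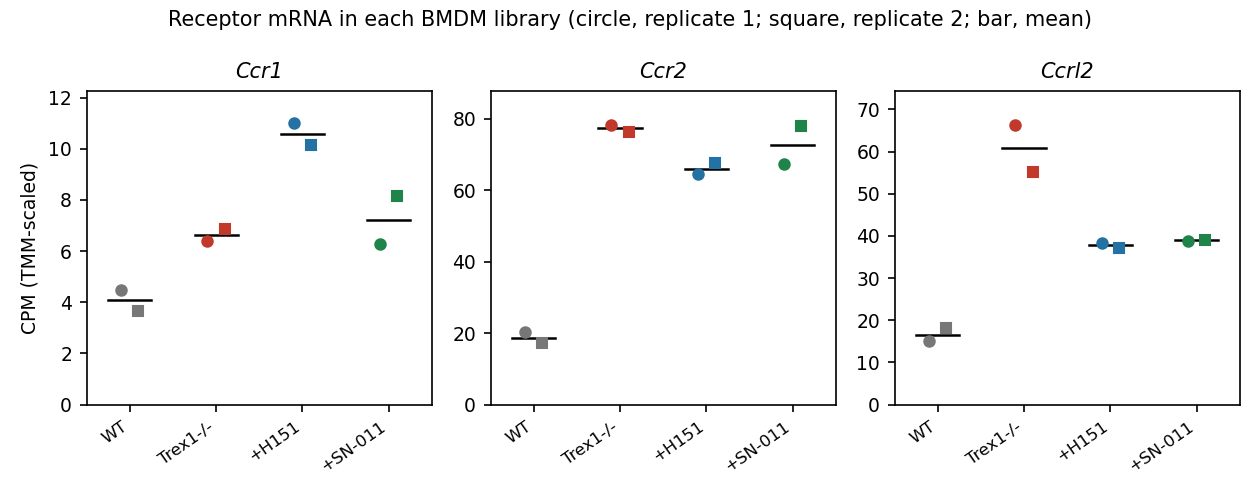
CPM of Ccr1, Ccr2 and Ccrl2 in the 8 libraries, with a circle for replicate 1, a square for replicate 2 and a bar at the group mean; axes start at 0. Ccr2 lies between 64.5 and 78.4 CPM in the 6 Trex1-/- libraries, all above WT. Ccrl2 with either antagonist lies between the WT libraries and the Trex1-/- libraries with DMSO.

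Of 10 other CC chemokine genes examined, 4 passed the filter and 1 was called higher in Trex1-/- than in WT, beside 9.27% of all tested genes. This was Ccl8, a ligand of CCR8 in mice, at 8.54 and 10.0 CPM in WT, 14.3 and 13.7 in Trex1-/-, 14.8 and 14.9 with H151, and 12.2 and 12.1 with SN-011. Its log2 fold change of 0.59 (edgeR adjusted p = 0.00854, SE 0.14) was lost without WT replicate 1 (adjusted p = 0.105) or Trex1-/- replicate 1 (0.0549), and it was called with neither antagonist against Trex1-/-. Ccl24, Ccl25 and Ccl27a were tested and not called in any of the comparisons with WT or with Trex1-/-.

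Some of the transcription factors known to bind chemokine promoters were called. Of 10 listed, 6 were called higher in Trex1-/- BMDMs, beside 9.27% of all tested genes, and Rela, Nfkb1, Nfkb2 and Irf3 were not called. With H151, 4 of the 10 were called lower, beside 1.84% of all tested genes, and with SN-011, 5 were, beside 2.22%. Irf7, the factor that amplifies interferon production, was at 83.6 and 66.9 CPM in WT, 479 and 445 in Trex1-/-, 211 and 274 with H151, and 256 and 293 with SN-011. Stat2, which carries the interferon signal, had a log2 fold change of 1.57 ± 0.07 in Trex1-/- against WT (SE, edgeR adjusted p = 3.24e-09). It fell by 1.05 on the log2 scale with H151 and by 0.98 with SN-011, both called. Irf1, an interferon-induced factor, had a log2 fold change of 0.64 ± 0.09 in Trex1-/- (SE, edgeR adjusted p = 0.000122), then fell by 0.57 with H151 and 0.62 with SN-011. Relb, an NF-κB subunit, rose in Trex1-/- with a log2 fold change of 0.34 ± 0.09 (SE, adjusted p = 0.0231 in edgeR), and fell by 0.45 with H151 and 0.58 with SN-011. Its rise was lost when scaled by library totals (adjusted p = 0.0786) or without WT replicate 2 (0.314), Trex1-/- replicate 1 (0.105) or Trex1-/- replicate 2 (0.0621). Its fall with H151 was lost without any 1 of the 4 libraries compared (adjusted p from 0.0501 to 0.0968), and that with SN-011 without SN-011 replicate 1 (0.0722) or replicate 2 (0.0545). Irf7 and Stat2 remained called above WT with both antagonists, and Irf1 and Relb did not. Irf5, named after its values were seen, rose by 0.47 in Trex1-/- (edgeR adjusted p = 0.000167), was called in neither antagonist comparison (log2 fold changes -0.07 and -0.09), and was called above WT with both antagonists. The fall of Irf7 with SN-011, 0.75 on the log2 scale, was not called without SN-011 replicate 1 (adjusted p = 0.0793). Of 6 RNA-binding proteins that act on chemokine mRNA, among them Zfp36 and Elavl1, none was called in these 3 comparisons.

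Promoters are shown for Ccl12, the member called lower with both antagonists, and Ccl9, an abundant member whose intervals around 0 were narrow in both antagonist comparisons. The windows are the 250 bases before the RefSeq gene start (GRCm38.p6), on the gene's strand, with motif matches in capitals. RefSeq windows were matched for 5 of the 9 members, Ccl12, Ccl3, Ccl6, Ccl9 and Ccl22.
Ccl12 (chr11:82101595-82101844, plus strand): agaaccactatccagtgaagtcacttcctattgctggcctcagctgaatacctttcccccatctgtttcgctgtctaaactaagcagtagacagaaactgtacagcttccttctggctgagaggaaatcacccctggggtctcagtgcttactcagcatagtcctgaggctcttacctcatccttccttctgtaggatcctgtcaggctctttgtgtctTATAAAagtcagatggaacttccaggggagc
Ccl9 (chr11:83578637-83578886, minus strand): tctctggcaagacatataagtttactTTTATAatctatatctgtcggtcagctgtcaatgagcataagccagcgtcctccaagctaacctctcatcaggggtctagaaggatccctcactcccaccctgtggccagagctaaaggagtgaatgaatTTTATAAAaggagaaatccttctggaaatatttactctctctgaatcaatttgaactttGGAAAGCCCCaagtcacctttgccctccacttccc
In Ccl12 the capitals mark TATAAA, 31 to 26 bases before the start. In Ccl9 they mark TATAAA on the gene's strand at 92 to 87 bases, overlapping a match on the other strand, a further TATAAA on the other strand at 224 to 219 bases, and the NF-κB motif on the other strand at 35 to 26 bases. Both strands of the 5 windows were searched for these motifs and for the interferon motifs GAAANNGAAA (ISRE) and TTCNNNGAA (GAS). ISRE and GAS letters were found in none of the 5 windows, and the NF-κB motif was found in Ccl9 alone. Over 32851 windows of the same length, 2.98% held ISRE, 7.02% GAS, 3.90% the NF-κB motif and 12.4% TATAAA. A match is a run of letters and not a shown binding site.

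For each member that rose in Trex1-/- BMDMs, the 2 tested genes with the most similar pattern across the 8 libraries were identified by the root mean square difference of centred log2 CPM. The nearest to Ccl5 were Hsh2d (0.170), which was near the floor of detection, and Tnf (0.171), which encodes the inflammatory cytokine TNF. Tnf was at 7.14 and 2.44 CPM in WT, 18.5 and 16.2 in Trex1-/-, 7.74 and 8.26 with H151, and 6.46 and 5.27 with SN-011. Like Ccl5, Tnf was lower in WT replicate 2 than in WT replicate 1 and highest in the 2 Trex1-/- libraries.

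The nearest to Ccl12 were Ifi203-ps (0.236), a pseudogene whose reads may be shared with related copies, and Trim30b (0.239). Trim30b was at 6.11 and 3.12 CPM in WT, 13.4 and 13.6 in Trex1-/-, 6.27 and 6.52 with H151, and 7.27 and 6.45 with SN-011. The nearest to Ccl4 were Dnaaf3 (0.107) and Fam241a (0.109), to Ccl6 Sirpb1c (0.0732) and Rinl (0.0737), and to Ccl9 Slc35d2 (0.0338) and Ms4a7 (0.0379), a gene expressed in macrophages. These differences compare with a spread of each member about its own mean, by the same measure, of 0.849 for Ccl5, 0.743 for Ccl12, 0.416 for Ccl4, 0.266 for Ccl6 and 0.154 for Ccl9.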

How the data were processed

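Polyadenylated RNA of 8 BMDM libraries was sequenced. The labels name HISAT2, HTSeq and mm10, and the study's methods name Trimmomatic, hisat2 and featureCounts on uniquely mapped pairs. The deposited values are raw counts per Ensembl gene, which the authors did not normalize. Symbols came from GENCODE release 21, which held 54495 of 54532 identifiers. Totals ran from 11845470 to 17284863, and intervals cover counting and library spread only.

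In R 4.3.3, edgeR 4.0.16 (filterByExpr, minimum count 10 and total 15, 14591 genes; TMM scaling; all 8 libraries in 1 quasi-likelihood fit) gave two-sided tests, adjusted by Benjamini-Hochberg over the 14591 genes, with an FDR threshold of 0.05. CPM values are TMM-scaled, and SE values are approximate. Alternatives included DESeq2 1.42.0 and leaving out each library of the groups compared in turn. The script was tested on simulated data.

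Members and lists were chosen with earlier results of these data known. Named were all members, up to 4 called genes of each list, the 2 nearest genes of each called member, Trex1 and the markers. Ccl19 and Ccl21a, with 2 identifiers each, were not used. A receptor and a transcription factor are not reported here, and the list counts leave them out.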

Additional observations from a re-analysis of the deposited data

How the results depend on the processing

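Each member was tested under up to 11 alternatives per comparison. The 5 calls in Trex1-/- against WT became 4 to 5 under all of them. With H151 against Trex1-/-, 2 calls became 1 when scaled by library totals or in DESeq2, 0 to 1 with a library left out, and 3 (Ccl7, Ccl12 and Ccl5) when genes with at least 1 count were kept or in edgeR's exact test. Fitted on the 2 groups alone, the 2 calls were Ccl12 and Ccl5. With SN-011 against Trex1-/-, 1 call became 4 when genes with at least 1 count were kept (Ccl22, Ccl7, Ccl12 and Ccl5), 2 when fitted on the 2 groups alone, 3 in edgeR's exact test, 0 in DESeq2 and 0 with any library of the groups compared left out. With SN-011 against WT, 4 calls became 2 to 3 with a library left out, and with H151 against WT 3 became 2 to 4 over all alternatives. In these cases the cause was not tested. Scaled by library totals, 1.62% of all tested genes were called lower with H151 against Trex1-/- and 1.84% with SN-011. In the main fit these shares were 1.84% and 2.22%. For the other alternatives the share of all genes is not given, so their counts are not read as a result about the members. Among them, keeping genes with at least 1 count raised the genes tested from 14591 to 27065. With the replicate number as a block, the calls were 2 with SN-011 against Trex1-/- (Ccl12 and Ccl5, adjusted p of Ccl5 0.0196) and were unchanged in number elsewhere. Deviations of same-numbered libraries correlated across genes at 0.19 between Trex1-/- with DMSO and Trex1-/- with H151. Between the other pairs of groups the correlations ran from -0.016 to 0.061. The numbers were not taken to pair the libraries. The block fits 1 common replicate effect in all 4 groups, so a pairing of these 2 groups alone was not tested.

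Signs turned in uncalled values only, except where Ccl5 is named. Ccl12 with H151 against WT was -0.00054 when scaled by library totals and -0.40 to 0.66 with a library left out, and with SN-011 against WT -0.00015 to 1.06. Ccl2 ran from -0.18 to 0.43 in Trex1-/- against WT, from -0.066 to 0.13 with SN-011 against Trex1-/-, and against WT from -0.49 to 0.12 with H151 and -0.14 to 0.46 with SN-011. Ccl5 with SN-011 against WT ran from -0.23 to 1.68, called at the upper end. Ccl6 ran from -0.036 to 0.19 with H151 against Trex1-/- and from -0.0018 to 0.13 between antagonists, and Ccl9 from -0.074 to 0.088 between antagonists. Counts were low for Ccl22, at 0 to 19 in a library, and for Ccl12, at 14 to 71. The level of Ccl6 per kilobase in WT was 197 by all exons and 246 by its longest transcript.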
